A study of Mus musculus with 6 samples.

Results

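The genes described here are the cytokines BAFF (Tnfsf13b) and APRIL (Tnfsf13), their receptors TACI (Tnfrsf13b), BAFF-R (Tnfrsf13c) and BCMA (Tnfrsf17), and the plasma cell genes Jchain, Mzb1, Irf4, Prdm1 and Xbp1. They were chosen by gene symbol, and all 10 were matched among the 18437 genes listed. The values come from bulk RNA-seq of tongue tumours that grew in C57BL/6 mice after injection of 4MOSC1, a mouse line of oral squamous cell carcinoma. Tumours of 4MOSC1-con cells, the control genotype, gave 3 libraries, and tumours of 4MOSC1-LIGHT cells, which overexpress LIGHT, gave 3 libraries. The series title places the work in tertiary lymphoid structures, which are lymph node-like aggregates in tissue. LIGHT is the TNF superfamily ligand encoded by Tnfsf14. Only the injected cancer cells carried the overexpression, and the host animals were of the same strain in both groups. Age, sampling time, promoter and clonality are not stated in the labels used here, nor is the animal behind each library, so the spread that p-values rest on may be technical.

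BAFF and APRIL are survival factors for cells of the B lineage. BAFF binds BAFF-R, TACI and BCMA, while APRIL binds TACI and BCMA and also attaches to heparan sulfate chains such as those of syndecan-1. BAFF-R is the main survival receptor of mature B cells, BCMA serves long-lived plasma cells, and TACI is found on activated and memory B cells. Myeloid cells, dendritic cells and stroma are common sources of the ligands, and interferons are known inducers of BAFF. In a B cell that becomes a plasma cell, Irf4 and Prdm1 (Blimp-1) drive the switch and Xbp1 enlarges the secretory apparatus. Jchain joins the units of polymeric IgA and IgM, and Mzb1 is an endoplasmic reticulum helper of immunoglobulin assembly. Irf4, Prdm1 and Xbp1 also act outside the B lineage, Irf4 in T cells and dendritic cells, Prdm1 in T cells and differentiating keratinocytes, and Xbp1 in secretory cells generally.

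Tnfsf14, the overexpressed gene, was at 0.53 to 0.79 TPM in the controls and 23.9 to 26.2 TPM with LIGHT, and the squamous keratin Krt5 was at 4151 to 5395 TPM over all 6 libraries, so neither goes against the labels. Levels are given as TPM, a relative abundance corrected for gene length. TPM carries no read totals, and sequencing depth is unknown for these libraries. A level of 1 TPM was reached by 12713 to 12838 genes per control library and by 13183 to 13271 per LIGHT library. The 13167 genes that reached it in 3 or more of the libraries were tested with limma on log2(TPM + 1), and fold changes are on that scale, which understates changes of low genes. At an adjusted p under 0.05, limma called 23.1% of all tested genes, 17.7% higher in LIGHT tumours and 5.41% lower. Higher genes made up 76.6% of these calls, 50.9% of those with trimmed-mean scaling and 43.6% of those with quantile normalization, as the median log2 fold change of all genes moved from 0.09 to -0.01 and -0.04. With 3 libraries against 3, an exact two-sided permutation test cannot give a p below 0.1, which is the value for each called gene among the 10. In a bulk specimen, fewer cells of a type and less RNA per cell cannot be told apart.

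Of the 10 genes, Tnfsf13b, Tnfsf13, Tnfrsf13b and Irf4 were called higher in LIGHT tumours, Prdm1 was called lower and Xbp1 was not called, beside 23.1% of tested genes called in either direction (17.7% higher, 5.41% lower). The other 4, Tnfrsf13c, Tnfrsf17, Jchain and Mzb1, stayed under 1 TPM in every library and were not tested. The plasma cell transcription factors did not move together, since Prdm1 was called lower and Xbp1 was not called. Of the 3 receptors, Tnfrsf13b alone was tested. Irf4 stayed below 1 TPM in all 3 controls and reached testing only through the LIGHT libraries, so it had to differ and its place among the genes called higher is no support. For the called genes the groups did not overlap. Groups without overlap occurred in 41.2% of all tested genes, in 29.6% with LIGHT above control and in 11.6% with LIGHT below.

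**Figure D1:**
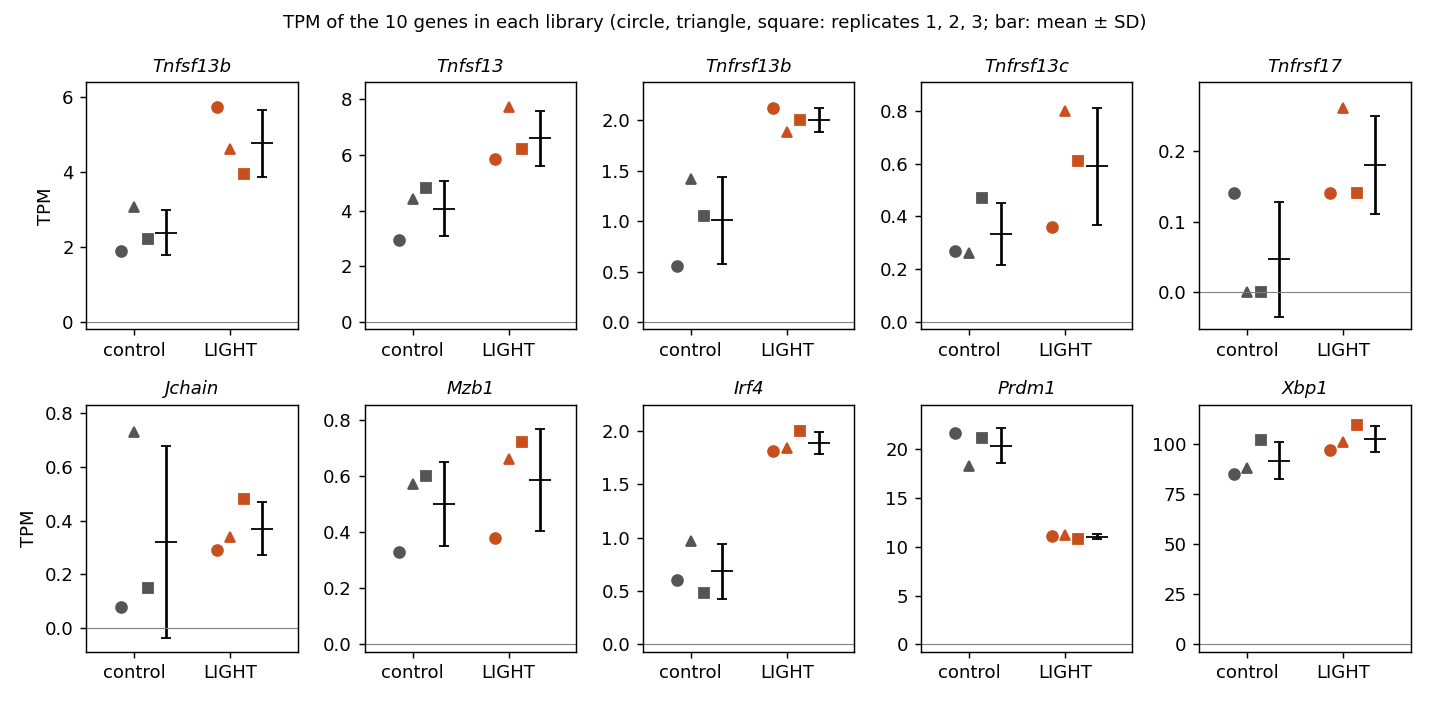
Each panel plots the TPM (linear axis) of 1 gene in the 3 control libraries (grey) and the 3 LIGHT libraries (orange), with symbols for replicates 1 to 3 and a bar for the mean ± SD. The LIGHT points lie above the control points for Tnfsf13b, Tnfsf13, Tnfrsf13b and Irf4 and below them for Prdm1, while the other 5 genes overlap.

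By level, the order in control tumours ran from Xbp1 (91.8 TPM) and Prdm1 (20.3 TPM) through Tnfsf13, Tnfsf13b, Tnfrsf13b, Irf4, Mzb1, Tnfrsf13c and Jchain to Tnfrsf17 (0.05 TPM). Xbp1 stood apart from Prdm1, Prdm1 from Tnfsf13, and Tnfsf13b from Tnfrsf13b, while every other pair of neighbours in this order had overlapping ranges. In LIGHT tumours the order was the same except that Tnfrsf13c came before Mzb1, and 3 more pairs of neighbours stood apart: Tnfsf13 from Tnfsf13b, Irf4 from the gene after it, and Jchain from Tnfrsf17. TPM is corrected for transcript length, so these levels can be set beside each other.

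Tnfsf13b, encoding BAFF, was at 1.9, 3.06 and 2.21 TPM in control replicates 1 to 3 and at 5.73, 4.63 and 3.96 TPM in LIGHT replicates 1 to 3. Every LIGHT library was above every control library, and LIGHT replicate 1 was the highest. The mean rose from 2.39 ± 0.60 to 4.77 ± 0.89 TPM (SD, n = 3 each), or 0.77 ± 0.17 (SE) as a log2 fold change, with adjusted p = 0.0172 by limma. The call was kept in 12 of 16 other settings and was lost without control replicate 3 (adjusted p = 0.0583), after quantile normalization (0.0562) and with a skeletal muscle or haemoglobin covariate (0.0763 and 0.0773). With those covariates the log2 fold change was 1.01 and 0.77, and after quantile normalization it was 0.52.

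Tnfsf13b lies on chromosome 8 from 10006467 to 10039072 (GRCm38.p6, plus strand), with 6 annotated transcripts. RefSeq gives it a pair of start sites, and the 250 bases before the first hold none of 8 motifs searched. An interferon-stimulated response element, a pair of GAAA repeats with a short spacer, lies 16 to 7 bases before the second start, inside the first exon of the longest transcript. It is shown because interferons are known inducers of BAFF. The capitals mark the matched element, and the site is chr8:10006607-10006636 on the plus strand.
Tnfsf13b site: tacaaaaactGAAAGTGAAAtgcggaaggc
Matches to this element, on either strand, were found in the 250 bases before 2.98% of the 32851 mouse start sites in the RefSeq table. A match is a description of the letters and says nothing of binding in these tumours.

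Tnfsf13, encoding APRIL, was at 2.95, 4.43 and 4.83 TPM in the control libraries and at 5.86, 7.73 and 6.22 TPM in the LIGHT libraries. The groups did not overlap, and LIGHT replicate 2 was the highest where LIGHT replicate 1 had been for Tnfsf13b. The mean rose from 4.07 ± 0.99 to 6.60 ± 0.99 TPM, a log2 fold change of 0.60 ± 0.17 (SE) with adjusted p = 0.0428 by limma. This value is close to the threshold: 11 of 17 other settings lost the call, including each of the 6 that left out 1 library, where the adjusted p ran from 0.0518 without LIGHT replicate 1 to 0.116 without LIGHT replicate 2. After trimmed-mean scaling the log2 fold change was 0.51 (adjusted p = 0.102), and it was above 0 in all of these settings.

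Tnfsf13 lies on chromosome 11 from 69682846 to 69685784 (minus strand), within the span of Tnfsfm13, a read-through gene that joins the neighbouring Tnfsf12 (TWEAK) to Tnfsf13, and beside an antisense transcript on the other strand. The sources used here do not say whether counting used strand, so reads of Tnfsf13 and of these overlapping genes may have been divided between them. Tnfsfm13 was listed at 0.96, 0.75 and 0.17 TPM in controls 1 to 3 and at 0.45, 0.97 and 0.92 TPM in the LIGHT libraries, with overlapping groups. With Tnfsfm13 added to Tnfsf13, an alternative chosen after seeing the data, the log2 fold change was 0.55 (SE 0.15, limma adjusted p = 0.0312). Tnfsf12 itself, a TNF ligand with a receptor of its own, averaged 3.61 ± 0.36 TPM in controls and 6.47 ± 0.72 TPM with LIGHT (log2 fold change 0.70, SE 0.12, limma adjusted p = 0.00774).

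**Figure D2:**
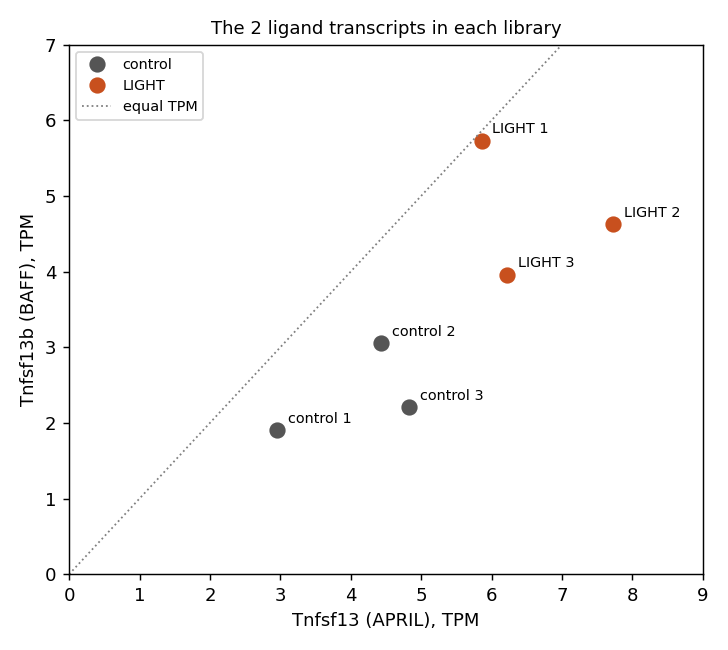
Each point is 1 library, with the TPM of Tnfsf13 (APRIL) on the horizontal axis and of Tnfsf13b (BAFF) on the vertical axis, both linear, control in grey and LIGHT in orange, and the dotted line marks equal TPM. All 6 points lie below the line, and the 3 LIGHT points lie above and to the right of the 3 control points, with LIGHT replicate 1 closest to the line.

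The balance of the ligands did not separate the groups. The log2 ratio of Tnfsf13b to Tnfsf13 TPM was -0.63, -0.53 and -1.13 in the control libraries and -0.03, -0.74 and -0.65 in the LIGHT libraries. APRIL transcripts were thus above BAFF transcripts in all 6 libraries, nearly level with them in LIGHT replicate 1. The mean ratio was -0.77 ± 0.32 in control and -0.47 ± 0.39 in LIGHT tumours (SD, n = 3 each), a difference of 0.29 with an exact two-sided permutation p of 0.6. Left-out libraries moved this difference between 0.07 without LIGHT replicate 1 and 0.42 without LIGHT replicate 2, and it was 0.11 without control replicate 3. These data therefore do not show that the ligands changed by different amounts, nor that they changed alike.

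Tnfrsf13b, encoding TACI, was at 0.56, 1.42 and 1.05 TPM in the control libraries and at 2.12, 1.88 and 2 TPM in the LIGHT libraries. The LIGHT values lay close together and above the wider control values. The mean rose from 1.01 ± 0.43 to 2.00 ± 0.12 TPM, a log2 fold change of 0.60 ± 0.17 (SE) with adjusted p = 0.0412 by limma. The call was kept in only 4 of 16 other settings. It was lost without control replicate 1 or 3 or any 1 LIGHT library (adjusted p from 0.0813 to 0.106), and under quantile normalization the log2 fold change was 0.31 (adjusted p = 0.178).

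Tnfrsf13c, encoding BAFF-R, was at 0.27, 0.26 and 0.47 TPM in controls 1 to 3 and at 0.36, 0.8 and 0.61 TPM in the LIGHT libraries. Control replicate 3 lay above LIGHT replicate 1, and an exact two-sided permutation test on log2(TPM + 1) gave p = 0.2. Tnfrsf17, encoding BCMA, was listed at 0.14, 0 and 0 TPM in controls 1 to 3 and at 0.14, 0.26 and 0.14 TPM in the LIGHT libraries (exact permutation p = 0.3). With no filter on low values, limma gave adjusted p = 0.198 for Tnfrsf13c and 0.138 for Tnfrsf17.

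Among the plasma cell genes, Jchain and Mzb1 are the ones that few other cells transcribe strongly. Jchain was at 0.08, 0.73 and 0.15 TPM in controls 1 to 3 and at 0.29, 0.34 and 0.48 TPM in the LIGHT libraries, and the highest value of all 6 was in a control library (exact permutation p = 0.8). Mzb1 was at 0.33, 0.57 and 0.6 TPM in controls 1 to 3 and at 0.38, 0.66 and 0.72 TPM in the LIGHT libraries, also with overlapping groups (exact permutation p = 0.5). Neither reached 1 TPM in any library, although the BAFF and APRIL transcripts were higher in LIGHT tumours. Of 13 immunoglobulin genes looked up, Igll1 was matched, listed at 0 in 5 libraries and at 0.25 TPM in LIGHT replicate 3. The other 12, the heavy and light chain constant genes that plasma cells transcribe most, were not analysed here.

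Irf4, the transcription factor that starts plasma cell differentiation and also acts in activated T cells and dendritic cells, was at 0.6, 0.97 and 0.48 TPM in controls 1 to 3 and at 1.81, 1.84 and 2 TPM in the LIGHT libraries. All LIGHT values lay above all control values and close to each other. The means were 0.68 ± 0.26 TPM for control and 1.88 ± 0.10 TPM for LIGHT (log2 fold change 0.79, SE 0.14, limma adjusted p = 0.00885). The call held without any 1 library (adjusted p up to 0.033) and with no filter on low values (0.011), and was lost with the skeletal muscle or haemoglobin covariate (0.0817 and 0.0567), where the log2 fold change was 0.89 and 0.68. Irf4 was below 1 TPM in every control and reached testing only through its LIGHT libraries, so it had to differ. The fits without 1 library kept the same set of tested genes, so their calls are no support either.

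Prdm1, encoding Blimp-1, went the other way. It was at 21.6, 18.2 and 21 TPM in controls 1 to 3 and at 11.1, 11.2 and 10.7 TPM in the LIGHT libraries, a gap wider than the spread within either group. The mean fell from 20.3 ± 1.81 to 11.01 ± 0.25 TPM, a log2 fold change of -0.82 ± 0.096 (SE) with adjusted p = 0.00225 by limma, the smallest adjusted p among the 10 genes. The call held in all 17 other settings, with log2 fold changes from -0.94 to -0.76 and adjusted p up to 0.0336.

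Xbp1, the unfolded protein response factor, was the most abundant of the 10 genes at 85.1, 88.1 and 102 TPM in controls 1 to 3 and at 97.1, 101 and 110 TPM in the LIGHT libraries. The groups overlapped, since control replicate 3 lay above LIGHT replicates 1 and 2. The log2 fold change was 0.16 with a 95% interval from -0.06 to 0.39 (limma adjusted p = 0.263). The test was on total Xbp1 transcript, and the spliced form that encodes the active factor was not measured apart.

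Irf4 and Prdm1 are printed here because they moved in opposite directions, with Irf4 on chromosome 13 from 30749226 to 30766976 (plus strand) and Prdm1 on chromosome 10 from 44437177 to 44528501 (minus strand). The sequences are the bases before a RefSeq start site (GRCm38.p6), chr13:30748983-30749225 and chr10:44458749-44458998, 5′ to 3′ along the gene and with annotated exon bases left out. Capitals mark an AP-1 element of the form TGANTCA.
Irf4 upstream: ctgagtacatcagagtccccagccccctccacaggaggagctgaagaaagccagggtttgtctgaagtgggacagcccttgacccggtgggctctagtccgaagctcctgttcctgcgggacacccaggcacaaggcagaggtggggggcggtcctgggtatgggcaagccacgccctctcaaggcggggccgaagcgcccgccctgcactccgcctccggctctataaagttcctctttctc
Prdm1 upstream: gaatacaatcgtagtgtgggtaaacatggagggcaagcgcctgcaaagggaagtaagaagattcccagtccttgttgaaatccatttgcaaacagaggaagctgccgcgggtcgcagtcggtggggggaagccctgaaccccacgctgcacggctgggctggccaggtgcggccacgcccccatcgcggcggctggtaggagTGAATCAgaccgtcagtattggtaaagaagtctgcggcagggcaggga
The Prdm1 start lies within the annotated gene, in an intron of its longer transcript. Prdm1 held 1 AP-1 element, 48 to 42 bases before the start, and Irf4 held none. The same form lay 127 to 121 bases before the second Tnfsf13b start and 133 to 127 bases before the Tnfsf13 start, both genes called higher. Its middle base was G in those genes and A in Prdm1, so the matched letters were not identical. A Blimp-1 core lay 159 to 152 bases before the second Tnfsf13b start, and an interferon element, on the opposite strand, 101 to 92 bases before the Tnfrsf17 start. The AP-1 element occurred before 6.75% of all start sites. The motifs searched on both strands were TTCNNNGAA (STAT factors, before 7.02% of start sites), TGANTCA, AGNGAAAG (Blimp-1, 7.3%), the interferon-stimulated response element, and the usual ETS with IRF (2.3%), NF-kappaB (1.41%), AP-1 with IRF (0.1%) and endoplasmic reticulum stress (0.113%) elements. The AP-1 with IRF form contains the AP-1 element, and the interferon, ETS with IRF and Blimp-1 forms can overlap. Start sites of 9 of the 10 genes were searched, and Mzb1 was left out. None of the windows searched held the NF-kappaB, STAT, ETS with IRF, AP-1 with IRF or stress form. Absence of the letters from this window says nothing of a factor.

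**Figure D3:**
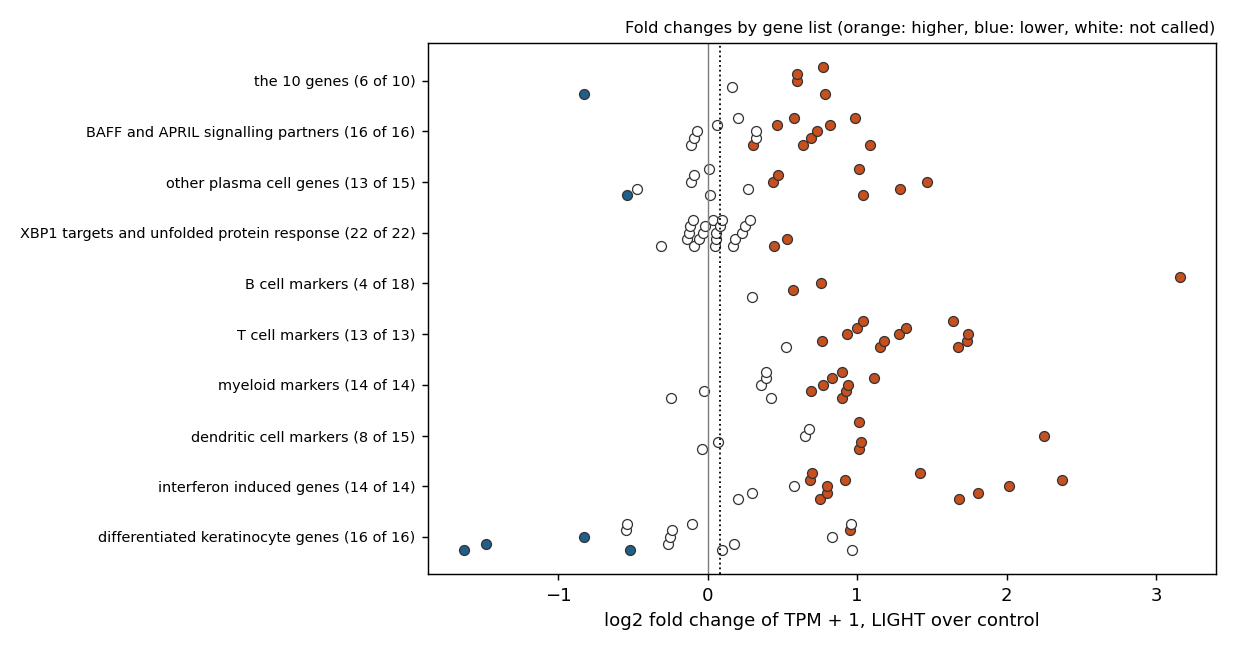
Each point is a tested gene at its log2 fold change of TPM + 1 (LIGHT over control, horizontal axis) in 1 of 10 gene lists, orange where called higher, blue where called lower and white where not called. Labels give the genes tested of the genes matched, the solid line is 0 and the dotted line is the median of all tested genes (0.09), around which the unfolded protein response genes gather while the signalling partners reach above 1.

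Downstream of the receptors, signals pass through TRAF adaptors, the cIAP ligases and NIK (Map3k14) to the noncanonical NF-kappaB subunits. The same pathway is used by LIGHT's own receptor LTBR, so these genes are not specific to BAFF. Of 16 matched signalling partners, all tested, 9 rose and 0 fell, beside 17.7% and 5.41% of all tested genes. Their median log2 fold change was 0.39 against 0.09 for all tested genes. Relb rose from 26.7 to 57.7 TPM, Birc3 (cIAP2) from 10.7 to 19.5 TPM and Nfkb2 from 47.3 to 94.0 TPM, with log2 fold changes of 1.09, 0.82 and 0.98. The survival gene Mcl1, which BCMA signals maintain in plasma cells, rose by a log2 fold change of 0.30, while BCMA transcripts did not exceed 0.26 TPM. Bcl2 and Bcl2l11 rose by 0.64 and 0.57, and Pim2 was not called (log2 fold change -0.09, limma adjusted p = 0.537). A link of these genes to BCMA was not tested. Syndecan-1 (Sdc1), a co-receptor of APRIL and a plasma cell surface marker that squamous epithelium also carries, was at 213 to 300 TPM with overlapping groups (limma adjusted p = 0.534). With the skeletal muscle covariate 2 of the 16 were called.

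Among 15 other plasma cell genes, 13 were tested, 6 rose and 1 fell (median log2 fold change 0.27), beside 17.7% and 5.41% of all tested genes. The rises were in Bhlhe41 (1.01 to 3.90 TPM), Slamf7 (4.51 to 10.1 TPM), Cd28 (0.94 to 2.95 TPM), Cd27, Sec11c and Cd38, of which Slamf7, Cd28, Cd27 and Cd38 are also surface proteins of T or natural killer cells. Among controls, Bhlhe41 and Cd28 reached 1 TPM in replicate 2 alone. Both were therefore tested only because of their LIGHT values, and their rises are no support. The fall was in Ell2 (40.4 to 27.7 TPM), an elongation factor that plasma cells use to process immunoglobulin transcripts. Fkbp11 averaged 24.7 TPM in controls and 17.5 TPM with LIGHT and was not called (limma adjusted p = 0.102). Its LIGHT values all lay below its control values, as in 11.6% of all tested genes. The more restricted Derl3 and Pou2af1 did not exceed 0.61 and 0.16 TPM. The rises numbered 4 without control replicate 3, 3 with the skeletal muscle covariate and 2 with the haemoglobin covariate, and the fall was not called without control replicate 1 or 3, without LIGHT replicate 2 or 3, with no filter on low values, or with either covariate.

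Of 22 targets of XBP1 and genes of the unfolded protein response, all tested, 2 rose and 0 fell (median log2 fold change 0.05), beside 17.7% and 5.41% of all tested genes. Edem2, which acts in the disposal of misfolded glycoproteins, rose from 21.0 to 28.8 TPM, and Ddit3 (CHOP) rose from 50.2 to 73.3 TPM. Syvn1, next by unadjusted p, averaged 31.8 TPM in controls against 37.6 TPM with LIGHT (limma adjusted p = 0.0614). The chaperone Hspa5 averaged 281 TPM in controls against 265 TPM with LIGHT (limma adjusted p = 0.531). The rises numbered 0 without control replicate 3 or with the skeletal muscle covariate, and 1 without control replicate 2, without LIGHT replicate 3 or with the haemoglobin covariate. After trimmed-mean scaling 2 rose and 2 fell, after quantile normalization 2 rose and 1 fell, and the median was -0.04 and -0.06.

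Cells that could carry these transcripts were followed through marker lists. The counts in these lists stand beside 17.7% of all tested genes called higher and 5.41% called lower. Of 18 B cell markers 4 were tested and 12 stayed under 1 TPM in every library, among them Ms4a1, which reached at most 0.05 TPM. Cd79b, a signalling chain of the B cell receptor, was not tested and was at 0.17, 0.22 and 0.16 TPM in controls 1 to 3 and at 1.29, 1.32 and 0.92 TPM in the LIGHT libraries, without overlap. In all, 8 of the 18 markers had every LIGHT value above every control value, beside 29.6% of all tested genes. The 8 include untested genes near 0, such as Ms4a1. The B cell list summed to 23.8 to 26.9 TPM in control and 45.8 to 52.7 TPM in LIGHT libraries, and Spib, Cd22 and Cd72 rose. Spib, a transcription factor of B cells and plasmacytoid dendritic cells, went from 0.69 to 14.1 TPM and Cd72 from 6.02 to 10.6 TPM, and Spib and Cd22 were tested only because of their LIGHT values. The count of 3 was 5 with no filter on low values, 1 after quantile normalization, without LIGHT replicate 2 or with the haemoglobin covariate, and 2 without control replicate 3, without LIGHT replicate 1 or 3, after trimmed-mean scaling or with the skeletal muscle covariate.

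Beside the ligands, 8 of 14 myeloid markers rose, led by C1qc, Lyz2 and C1qa, and the list summed to 871 to 989 TPM in control and 1473 to 1961 TPM in LIGHT libraries. Only 1 was called with the skeletal muscle covariate and 5 with the haemoglobin covariate. Of 14 interferon-induced genes 11 rose, led by Cxcl9, Cxcl10 and Gbp5, with a sum of 2422 to 3101 TPM in control and 5026 to 8108 TPM in LIGHT libraries, and 5 rose without control replicate 3. With the skeletal muscle and haemoglobin covariates 6 and 5 rose. Of 10 neutrophil markers 6 were tested, Ltf fell and 0 rose, with sums of 1623 to 2060 TPM in control and 635 to 3146 TPM in LIGHT libraries. Most of each sum was S100a8, S100a9 and Ltf, so the sums say little of the other markers. S100a8 alone ran from 704 to 963 TPM in control and from 105 to 1793 TPM in LIGHT libraries. Ly6g, Ngp and Camp stayed under 1 TPM in every library. Falls numbered 0 when control replicate 2 or 3, or LIGHT replicate 1 or 3, was left out and with the skeletal muscle covariate, and 1 marker rose without LIGHT replicate 1 or 2. The part of any of these cells or genes in the ligand result was not tested.

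The genes whose values over the 6 libraries followed Tnfsf13b most closely, among 12748 compared, were Tmem140, Apol9b and Trim34a (Pearson r of log2 values 0.998, 0.997 and 0.997). For Tnfsf13 they were Lef1, Dok3 and Rab3il1 (r 0.992, 0.992 and 0.991). These are descriptions over 6 libraries in a pair of groups, which any gene that differs between the groups partly shares.

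Beside Irf4, 12 of 13 T cell markers rose, led by Tnfrsf4, Icos and Cd2, and the list summed to 75.5 to 171 TPM in control and 267 to 321 TPM in LIGHT libraries. Of the 12, Foxp3 was below 1 TPM in every control and reached testing only through the LIGHT libraries. Cd28, which reached 1 TPM in control replicate 2 alone among controls, also needed its LIGHT values to be tested. With the skeletal muscle and haemoglobin covariates 7 and 6 of these markers were called. Of 15 dendritic cell markers 8 were tested and 4 rose, Ccl22, Itgax, Ccr7 and Bst2, with sums of 314 to 413 TPM in control and 592 to 738 TPM in LIGHT libraries, and 7 rose with no filter on low values. Most of each sum was Bst2 alone, at 213 to 310 TPM in control and 444 to 588 TPM in LIGHT libraries, so the sums say little of the other markers. Melanocytes, which also use Irf4, left little trace, since 6 of 7 of their markers stayed under 1 TPM and Mitf was not called. Their part in the Irf4 result was not tested.

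Beside Prdm1, 4 of 16 differentiated keratinocyte genes fell, led by Sprr1a (12302 to 4341 TPM), Cnfn and Sprr1b, and 1 rose, Krt4. The list summed to 43289 to 59838 TPM in control and 32462 to 44070 TPM in LIGHT libraries, ranges that overlap. Trimmed-mean scaling gave 6 falls and 0 rises, and the skeletal muscle covariate 1 fall and 0 rises. Risen genes also numbered 0 with no filter, robust moderation, the haemoglobin covariate, or when control replicate 1 or 2, or LIGHT replicate 2 or 3, was left out, and 2 without control replicate 3 or LIGHT replicate 1. Prdm1 fell while the T cell genes above rose. The part of keratinocyte or T cell content in the Prdm1 result was not tested.

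Transcripts of tongue muscle and blood were also measured. The skeletal muscle list summed to 3637 to 6126 TPM in control and 5701 to 10214 TPM in LIGHT libraries, with 2 of 20 genes called higher. That count was 11 without control replicate 1, 6 without LIGHT replicate 1, and 0 without control replicate 2 or 3 or with the haemoglobin covariate. It was 1 with no filter, either scaling, robust moderation or the replicate block. The skeletal muscle covariate is the mean level of these same genes, so its count of 0 was fixed in advance and shows nothing. The haemoglobin list summed to 70.0 to 453 TPM in control and 119 to 2086 TPM in LIGHT libraries, and limma called 0 of 4 tested genes (0 at an unadjusted p under 0.05). All 4 were called higher with the replicate block and without LIGHT replicate 1. Salivary gland genes, which mark glands where plasma cells commonly reside, were low, with 6 of 9 under 1 TPM and Bpifa2 listed at 0 in every library. Of the 3 tested, Pigr, the receptor that carries polymeric immunoglobulin across epithelium, rose from 2.15 to 4.62 TPM, Amy1 rose from 10.9 to 15.0 TPM and Bpifb1 fell from 1.54 to 0.64 TPM. With the skeletal muscle covariate 0 of the 3 were called, and there was 1 rise and no fall when control replicate 1 or 3, or LIGHT replicate 1 or 2, was left out. Bpifb1 reached 1 TPM in every control but, among LIGHT libraries, in replicate 3 alone (1.02 TPM). Its testing thus rested on its controls, and its fall is no support.

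**Figure D4:**
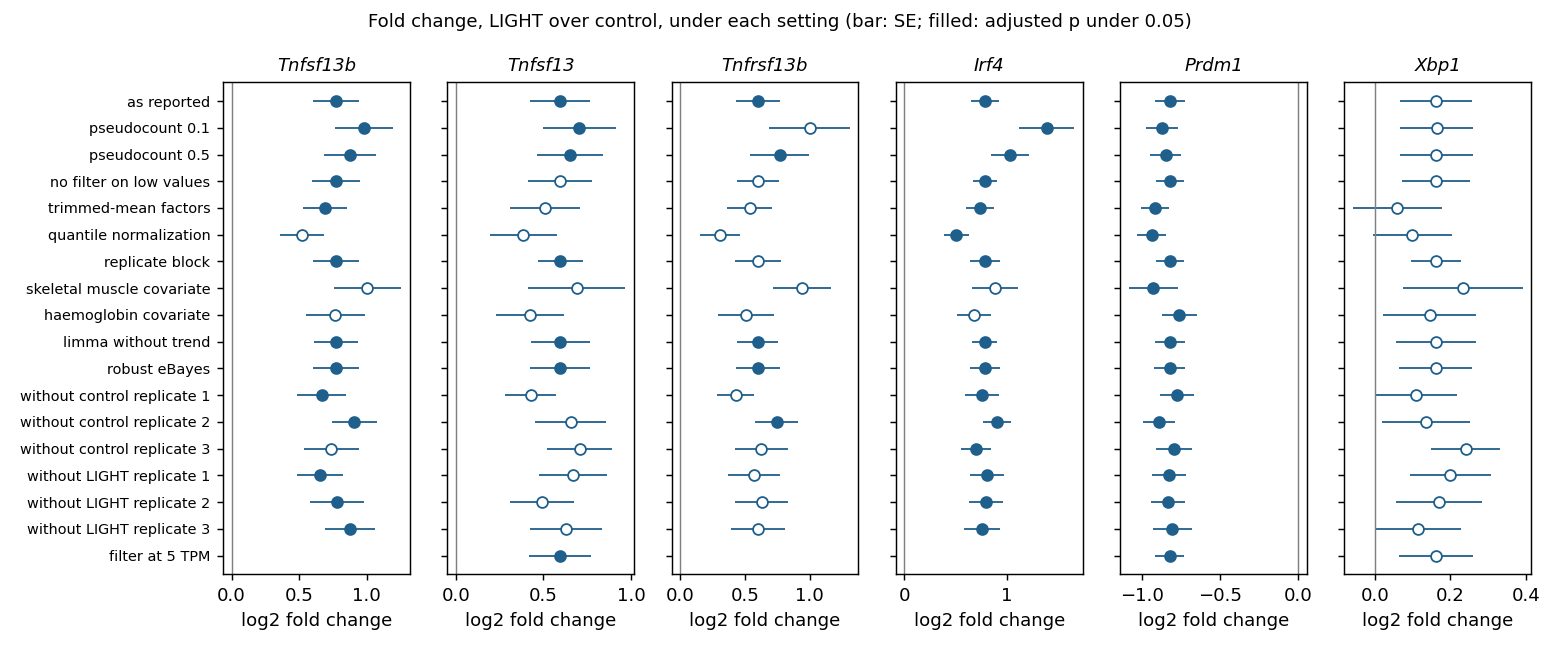
For each of the 6 tested genes, points give the log2 fold change (LIGHT over control, horizontal axis, scaled per gene) with its SE under the reported fit and each alternative setting, filled where the adjusted p was under 0.05. Prdm1 is filled in every row, Irf4 in all but 2, Xbp1 in none, and Tnfsf13 and Tnfrsf13b change between filled and open.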

How the data were processed

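Tumour RNA was freed of ribosomal RNA before library making, per the labels' protocols. HISAT, Bowtie2 and GRCm38.p6 appear in the submitters' processing notes without roles. Which program quantified the genes, and whether it used strand, is not given in the sources used here. Per the file headers, the authors deposited TPM for each gene and library, and every column adds up to 1000000, so TPM are relative shares.

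Every gene with at least 1 TPM in no fewer than 3 libraries entered a limma fit (version 3.58.1, R 4.3.3, mean-variance trend, 2-sided) of log2-transformed TPM with a pseudocount of 1. P-values were adjusted by Benjamini-Hochberg over all 13167 genes, at a threshold of 0.05. The test was tried on simulated data. Replicate numbers were not used as pairs.

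The 10 genes, the lists and the tests were chosen with earlier results of these data known. All 10 genes are named, with up to 3 tested genes per list by smallest unadjusted p, markers near 0 that define a cell type, and for each ligand the 3 genes of highest Pearson r. Cd27, Cd38, Sec11c, Ell2, Fkbp11, Mcl1, Bcl2, Bcl2l11, Pim2, Sdc1, Hspa5, Bst2, Krt4, Krt5, Cd79b, Foxp3, S100a9, Tnfsf14 and Tnfsf12 fall outside that rule and were chosen after their values were seen. Alternatives were other pseudocounts, filters, scalings (unweighted trimmed-mean factors, quantile), moderation settings, a block, covariates (mean log2 level of muscle or haemoglobin genes) and each library left out. Promoters come from RefSeq (GRCm38.p6), gene positions from GENCODE, and figures were drawn with matplotlib 3.10.9.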

Additional observations from a re-analysis of the deposited data

How the results depend on the processing

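Prdm1 stayed lower and called in all 17 alternatives run for it, and none of the 6 tested genes changed direction in any setting run. The count of 4 higher genes among the 10 was 2 with no filter on low values, 1 with a filter at 5 TPM (which tests only 3 of them), 2 after trimmed-mean factors, 1 after quantile normalization, and 0 by limma with either covariate (skeletal muscle or haemoglobin genes), where 4 and 2 were higher at an unadjusted p under 0.05. The muscle covariate was 5.94 to 6.70 in control and 6.72 to 7.43 in LIGHT libraries, without overlap. Fits with it therefore cannot tell muscle content and LIGHT apart. For Tnfsf13b, the log2 fold change went from 0.77 to 1.01 with this covariate and the SE from 0.17 to 0.25. Leaving out 1 library gave 1 to 3 higher genes: 1 (Irf4) when control replicate 3 was dropped, 3 for control replicate 2 and 2 for each of the others. Over all genes, 1399 were higher after quantile normalization, 462 with the muscle and 976 with the haemoglobin covariate, against 2325. The lower genes numbered 1733 after trimmed-mean factors, 1811 after quantile normalization, 70 with the muscle and 207 with the haemoglobin covariate, against 712. Without 1 library the counts ran from 1264 (without LIGHT replicate 3) to 2027 higher and from 325 to 791 lower. The higher calls were 76.6% of calls on the unscaled values, 50.9% with trimmed-mean factors and 43.6% with quantile normalization, whose median log2 fold changes over all genes were 0.09, -0.01 and -0.04. Except for the smaller set tested at 5 TPM, the cause of these changes was not tested.

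With the replicate number as a block, 3 of the 10 genes were higher (Tnfrsf13b at adjusted p = 0.0638 was not) and 1 lower, and 2325 and 907 genes in all. Deviations of same-numbered libraries correlated at 0.37, 0.24 and 0.01, and control replicate 3 correlated best with LIGHT replicate 2 (0.33), so the numbers were not taken to pair the samples. TPM holds no counts, so sampling error at the low levels of Tnfrsf17, Tnfrsf13c, Jchain and Mzb1 could not be estimated.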
